A study of Mus musculus with 15 samples.

Results

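In eosinophils grown from mouse bone marrow, 758 open chromatin regions carried H3K27ac away from H3K4me3 and had no H3K27ac peak in neutrophils or macrophages. They are called private regions here. They made up 2.77% of the 27402 open regions and 20.5% of the 3697 open regions with H3K27ac and without H3K4me3, which are called distal acetylated. An open region was a stretch with an ATAC-seq peak in both BALB/c libraries. It had to overlap an H3K27ac region called in both BALB/c libraries and no H3K4me3 region called in both. It was private when it overlapped no peak of the neutrophil or the macrophage H3K27ac list. The members were thus chosen by these calls, so the BALB/c ATAC, H3K27ac and H3K4me3 values and the neutrophil and macrophage H3K27ac calls are given as a description, with no test.

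All cells came from unselected bone marrow progenitors kept for 14 days in culture, with SCF and FLT3L at 100 ng/mL each on days 0 to 3 and IL-5 at 10 ng/mL on days 4 to 14. BALB/c cultures gave 2 ATAC-seq libraries, 2 ChIP-seq libraries each for H3K27ac, H3K4me3 and H3K4me1, 1 ChIP-seq library for PU.1 and 2 RNA-seq libraries. Cultures titled C57, with the strain label BL6/57, gave 2 libraries each for ATAC and H3K27ac. The authors also deposited 1 H3K27ac and 1 PU.1 list for each of 3 other cell types, named Neut, mBMDM and ImmGran and read here as neutrophil, bone-marrow-derived macrophage and immature granulocyte, with strain and culture not given in the sources used here. The labels do not say that the libraries came from separate animals or cultures, so the spread between libraries may be technical. The number of reads behind the peak lists is unknown, and peaks were called library by library. Library 1 and library 2 stand for the replicate numbers of the labels.

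Enhancers are stretches of DNA away from promoters that raise the transcription of genes on the same chromosome. An active enhancer is usually open and flanked by nucleosomes with acetylated lysine 27 (H3K27ac) and monomethylated lysine 4 (H3K4me1) of histone H3, while trimethylated lysine 4 (H3K4me3) marks promoters. PU.1, encoded by Spi1, is an ETS-domain transcription factor needed to form myeloid cells, and in macrophages it is known to bind at many enhancers of the cell type.

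The RNA libraries, with 40306679 and 30465490 counts, held the transcripts of the labelled cell. All 9 eosinophil markers, among them the granule proteins Prg2 and Epx and the interleukin 5 receptor chain Il5ra, reached 1 CPM (counts scaled to the library total) in both libraries and summed to 13226 and 13478 CPM. Markers of other cells were present too. All 10 neutrophil markers reached 1 CPM and summed to 1798 and 1554 CPM. Of 8 macrophage markers 7 did, with Marco at 0, and they summed to 6548 and 8061 CPM. The 4 stromal markers all reached it and summed to 2416 and 630 CPM, and 2 of the 5 mast cell and basophil markers did, with Mcpt4 at 0 and sums of 55.0 and 34.2 CPM. Spi1 stood at 411 and 436 CPM. In such bulk libraries fewer cells of a type and less RNA per cell cannot be told apart, and the part of other cells in the peaks of the private regions was not tested.

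The values behind the choice put the private regions in the middle of their lists. The peak caller's fold enrichment over background, which is the authors' own value, ran over the private regions from 3.18 to 13.0 with a median of 4.63 in ATAC library 1, and from 2.98 to 12.9 with a median of 4.53 in library 2. Ranked within the whole list, the median private region stood at percentile 43.7 and 48.0 of ATAC fold enrichment in the 2 libraries. The 1821 distal acetylated regions with an H3K27ac peak in both neutrophils and macrophages, called shared regions here, stood at 51.4 and 52.5, and all open regions at 58.3 and 58.7. For H3K27ac the order of private and shared regions depended on the measure. By fold enrichment the private regions had median percentiles of 40.4 and 42.1, with fold enrichments of 3.39 and 3.34, and the shared regions had percentiles of 31.6 and 30.4. By −log10 q the private medians were lower, at 2.24 and 2.46 against 2.65 and 2.80. All open regions with an H3K27ac peak stood above both sets by either measure. Their median percentiles were 56.7 and 57.1, and their medians of −log10 q were 3.34 and 3.49. An H3K27ac peak of library 1 overlapped 699 of the private regions and one of library 2 overlapped 736, because the 2 libraries' peaks had been joined into regions before the overlap was taken.

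The rule's edges ran close to some members. The 3 private regions nearest to an outside H3K27ac peak, of the neutrophil or macrophage list, were 2, 12 and 12 bp from it, against a median gap of 11034 bp. Over all open regions that overlapped such a peak, the 3 smallest overlaps were 1 bp each. For 39 private regions (5.15%) the gap was at most 500 bp. No H3K4me3 peak of either library touched 661 of the private regions (87.2%), while 22 had a peak in library 1 alone and 75 in library 2 alone. A further 393 open regions met the rule except that H3K27ac was called in only 1 of the 2 libraries, and they had an eosinophil PU.1 peak in 78.1% and C57 H3K27ac in both libraries in 10.9%.

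Most private regions carried PU.1 in eosinophils. A PU.1 peak overlapped 658 of the 758 (86.8%, 95% Wilson interval 84.2 to 89.0), against 77.7% of all open regions. The share was lower than in the shared regions, of which 1717 of 1821 (94.3%, 93.1 to 95.3) had a peak. The difference was -7.48 percentage points (95% interval -10.1 to -4.85) and passed Fisher's exact test, two-sided, with an adjusted p of 1.19e-09 over the 8 shares compared. It was -11.7 points when ATAC library 1 was left out and -16.6 points when the 4 PU.1 lists were cut to equal length. Regions are not replicates of a condition, so these intervals and tests hold only the counting error over regions, and the single PU.1 library gives no spread between libraries.

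PU.1 in the other cell types was found at less than 50% of the private regions. Neutrophil PU.1 peaks overlapped 317 private regions (41.8%, 38.4 to 45.4), where 63.6% of all open regions and 96.3% of the shared regions had one. Macrophage PU.1 peaks overlapped 300 (39.6%, 36.2 to 43.1), against 76.5% of all open regions and 93.9% of the shared regions. Immature granulocyte PU.1 peaks overlapped 192 (25.3%, 22.4 to 28.5), against 45.6% of all open regions and 73.7% of the shared regions. The differences from the shared regions were -54.5, -54.3 and -48.4 points, with adjusted p of 2.77e-208, 8.00e-190 and 9.30e-116 (Fisher's exact test, two-sided). The neutrophil and macrophage PU.1 lists come from the cell types whose H3K27ac lists split private from shared. The neutrophil and macrophage differences are thus not independent of that split. The lists differ in length, with 100426 neutrophil, 135034 macrophage, 35266 immature granulocyte and 62236 eosinophil peaks, so the shares of different cell types are not on one scale. For immature granulocyte PU.1 the difference fell to -27.2 points where at least 50% of the open region had to be covered, and to -28.6 points with the higher-ranked 50% of each list.

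**Figure D1:**
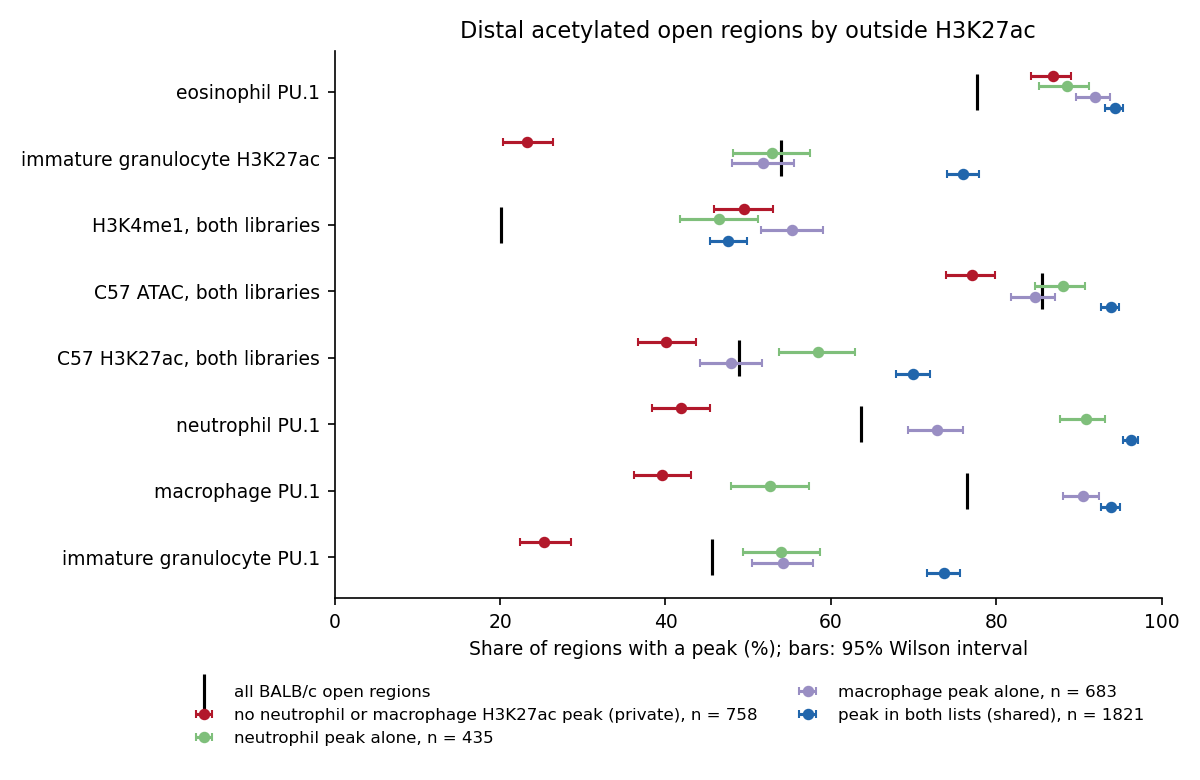
Share of distal acetylated open regions with a peak in each of 8 readouts, in percent, with 95% Wilson intervals, for regions split by the neutrophil and macrophage H3K27ac lists; the black bars give all 27402 open regions. Among the 4 sets of distal acetylated regions, the private regions (red) have the lowest share in 7 readouts, from 86.8% for eosinophil PU.1 to 23.2% for immature granulocyte H3K27ac, while in H3K4me1 the 4 sets lie between 46.4% and 55.3%.

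The distal acetylated regions with an H3K27ac peak in only 1 of the 2 outside lists lay between the private and the shared regions in the 7 readouts other than H3K4me1. Neutrophil PU.1 overlapped 90.8% of the 435 regions acetylated in neutrophils but not macrophages and 72.8% of the 683 acetylated in macrophages but not neutrophils. Macrophage PU.1 overlapped 52.6% and 90.5% of them. These sets were not compared by a test.

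Over the 4 cell types, the largest group of private regions had PU.1 in eosinophils alone. It held 261 regions (34.4%), against 5.63% of all open regions and 8 shared regions (0.439%). PU.1 in all 4 cell types was found at 128 private regions (16.9%), against 40.3% of all open regions and 72.4% of the shared regions. Eosinophils and neutrophils without the other 2 types made up 65 private regions (8.58%), against 1.93% of all open regions. Eosinophils, neutrophils and macrophages made up 93 (12.3%, against 16.4%), and eosinophils and macrophages 54 (7.12%, against 9.13%), so that both combinations with macrophages were below the share of all open regions. The 3 remaining combinations with eosinophils, all of which include immature granulocytes, held 19 private regions each (2.51%), against shares of all open regions from 0.434% to 2.93%. No cell type had PU.1 at 81 private regions (10.7%), where 12.8% of all open regions had none. PU.1 elsewhere but not in eosinophils was found at 19 private regions (2.51%), against 9.48% of all open regions.

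**Figure D2:**
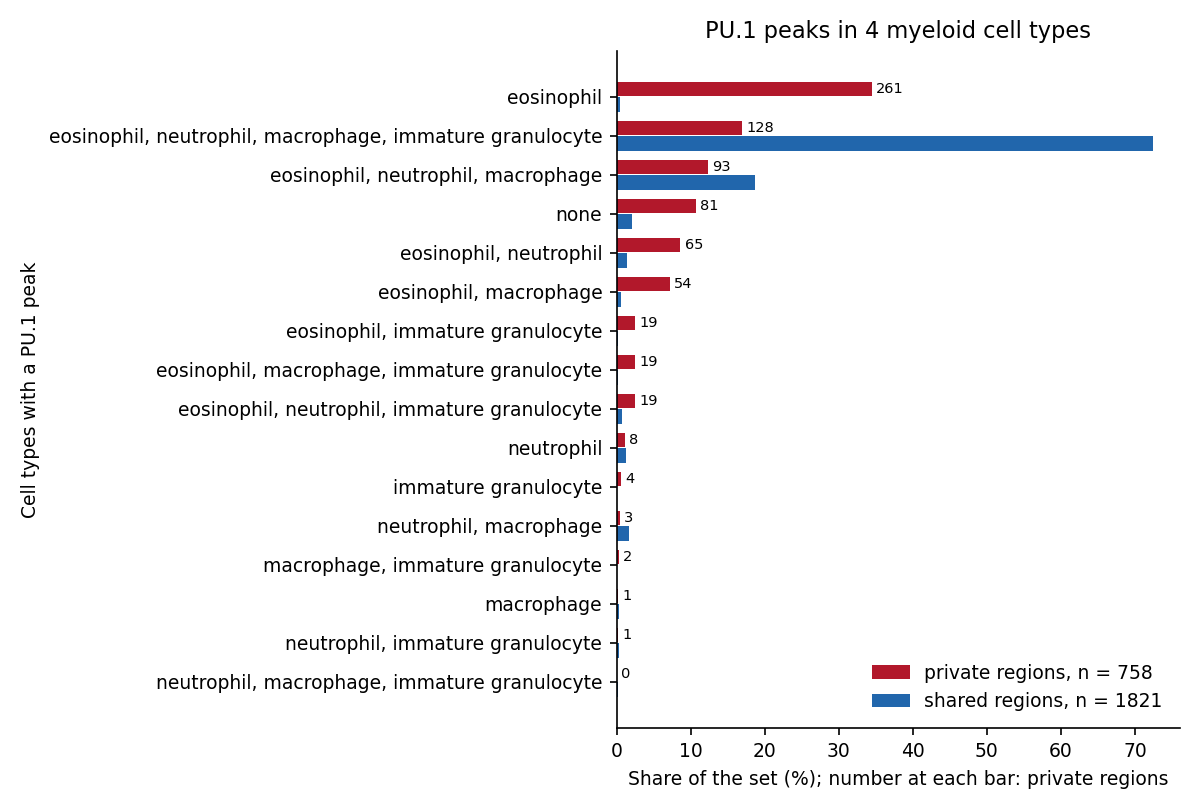
Private (red, n = 758) and shared (blue, n = 1821) regions by the cell types in which a PU.1 peak overlaps them, as a share of each set in percent, with the number of private regions at each bar. PU.1 in eosinophils alone is the longest red bar with 261 regions, and PU.1 in all 4 cell types is the longest blue bar with 72.4%.

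The eosinophil PU.1 peak was higher where other cell types also had PU.1. At the 261 private regions with PU.1 in eosinophils alone, the peak had a median fold enrichment of 5.37 and a median percentile of 51.4 in its list (quartiles 29.7 to 74.4). PU.1 in eosinophils and at least 1 other type was found at 397 private regions (52.4%), against 72.1% of all open regions and 93.8% of the shared regions. At these 397 the median fold was 7.78 and the percentile 82.1 (60.3 to 92.5). At the 128 with PU.1 in all 4 types, the median fold was 9.40 and the percentile 92.0 (82.1 to 97.0). The quartile ranges of the first and the last of these groups did not overlap, while the widths of the regions were alike, with medians of 523, 524 and 506.5 bp. The 100 private regions without eosinophil PU.1 were narrower, with a median of 391.5 bp, and ranked lower in ATAC, at median percentiles of 29.9 and 32.3. These medians are a description and were not tested.

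Where PU.1 peaks of 2 cell types overlapped the same region, the distance between their summits was taken. Short distances follow in part from this choice, and no expected distance was computed. The eosinophil and neutrophil summits were a median of 68 bp apart in the 305 private regions with both peaks, and 68.5% of the pairs lay within 100 bp. The eosinophil and immature granulocyte summits were 60 bp apart in 185 regions, and the neutrophil and immature granulocyte summits 16.5 bp apart in 148 regions. The same distances in the shared regions were 67, 58 and 16 bp. Most private regions, 635 of 758, overlapped 1 eosinophil PU.1 peak, 22 overlapped 2 and 1 overlapped 3.

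Immature granulocytes, which the rule did not use for H3K27ac, had an H3K27ac peak at 176 private regions (23.2%, 20.4 to 26.4). All open regions had one in 54% and the shared regions in 76.0%. The difference from the shared regions was -52.8 points (-56.4 to -49.2), with an adjusted p of 1.19e-138 by Fisher's exact test, two-sided. The sets had been split by the same mark in other myeloid cells, so the direction of this difference may follow from the choice of the sets. Regions with a neutrophil H3K27ac peak alone stood at 52.9% and those with a macrophage peak alone at 51.8%. The 176 peaks had a median fold of 4.02 and a median percentile of 44.6 in their list, against 65.1 for the shared regions. Without these regions 582 private regions remained.

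H3K4me1, the mark of enhancers, was called in both libraries at 375 private regions (49.5%, 45.9 to 53.0), where 20.1% of all open regions had it. Over all private regions, library 1 had a peak at 419 (55.3%, against 25.3% of all open regions) and library 2 at 408 (53.8%, against 24.8%). Only 1 library called it at 177 (23.4%, against 16.6% of all open regions), and neither at 256 (33.8%, against 66.6%). Because peaks of the 2 libraries were joined before the overlap was taken, regions touched by the peak of a single library can be among the 375. The shared regions stood at 47.6%. The difference of 1.86 points (-2.37 to 6.10) did not pass Fisher's exact test, two-sided, with an adjusted p of 0.411, and the interval leaves room for a difference in either direction. The call depended on the settings. The difference was 4.87 points with an adjusted p of 0.0246 (Fisher's exact test) when H3K4me1 library 2 was left out, and -1.53 points (adjusted p = 0.474) when H3K27ac library 2 was left out. It was 22.5 points with the higher-ranked 50% of every list, 7.13 points where 50% of the open region had to be covered, and 4.94 points with outside H3K27ac lists of equal length, and it passed in these 3 settings. Where H3K4me1 was called, the private regions ranked higher than the shared regions by fold enrichment, with median percentiles of 46.9 and 42.1 against 31.2 and 31.4. By −log10 q they did not, with a median of 1.98 against 2.00 in library 1 and also a lower median in library 2. All open regions with an H3K4me1 peak had higher median percentiles than the private regions, at 52.5 and 50.6. Their medians of −log10 q were lower, at 1.90 and 1.82.

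**Figure D3:**
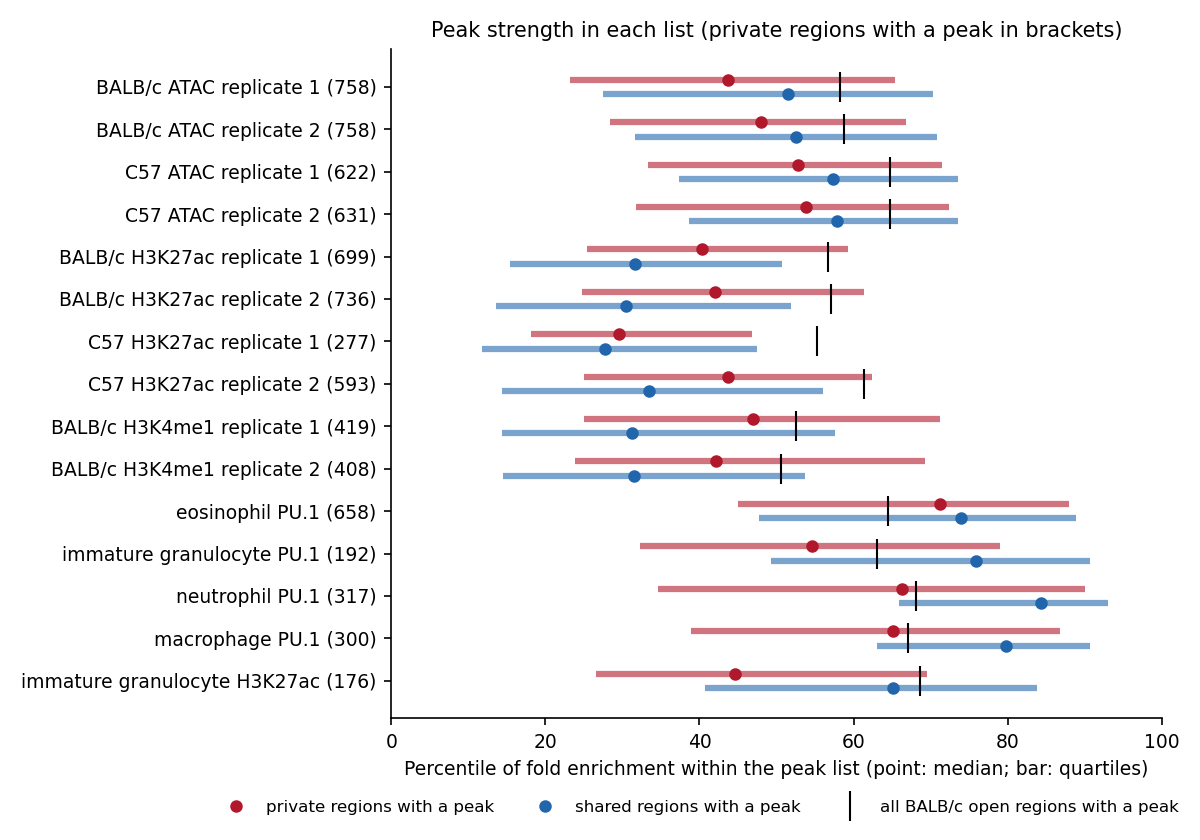
Percentile of fold enrichment within each peak list for regions with a peak there, private (red) and shared (blue), as median (point) and quartiles (bar), with the median of all open regions as a black line and the number of private regions in brackets. In both H3K27ac lists of BALB/c the private medians (40.4 and 42.1) lie to the right of the shared ones (31.6 and 30.4), and in the neutrophil PU.1 list they lie to the left (66.3 against 84.3).

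The private regions were called less often in C57 cultures than the shared regions. Both sets were chosen on BALB/c calls, but the shared regions also had to have an H3K27ac peak in both outside lists. Private regions had to have a peak in neither. How far this choice sets the difference in C57 calls was not tested. C57 ATAC had a region called in both libraries at 584 private regions (77.0%, 73.9 to 79.9), against 85.5% of all open regions and 93.8% of the shared regions. The difference from the shared regions was -16.8 points (-20.0 to -13.6), with an adjusted p of 1.14e-31 (Fisher's exact test, two-sided). Library 1 had a C57 ATAC peak at 622 private regions (82.1%, against 89.3% of all open regions) and library 2 at 631 (83.2%, against 90.6%). A peak in only 1 of the libraries was found at 89 private regions (11.7%, against 8.79% of all open regions). Neither library had a peak at 87 (11.5%), against 5.68% of all open regions and 1.87% of the shared regions. The 2 ATAC libraries gave nearly the same count.

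For C57 H3K27ac the 2 libraries differed. Library 1, with 14992 peaks in its list, had a peak at 277 private regions (36.5%, against 47% of all open regions). Library 2, with 27527 peaks, had one at 593 (78.2%, against 66.7%). Only 1 of the libraries had a peak at 318 private regions (42.0%, against 20.2% of all open regions). The share was 42.3% for distal acetylated regions with a macrophage H3K27ac peak alone, 37.2% with a neutrophil peak alone and 30.8% for the shared regions. A region called in both libraries was found at 304 (40.1%, 36.7 to 43.6), against 48.9% of all open regions and 70.0% of the shared regions. The difference was -29.9 points (-33.9 to -25.8), with an adjusted p of 1.02e-44 (Fisher's exact test, two-sided), and it was -16.4 points without C57 H3K27ac library 1. Neither library had a peak at 164 private regions (21.6%), against 33% of all open regions and 4.83% of the shared regions. Peaks of both C57 assays in all 4 libraries were found at 249 private regions (32.8%), against 45.4% of all open regions and 62.3% of the shared regions. No C57 peak of either assay was found in any library at 56 (7.39%), against 4.31% of all open regions and 0.384% of the shared regions. Strain, library and the reads behind each list cannot be told apart in a missing call.

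The 8 differences from the shared regions were also taken as common odds ratios (Mantel-Haenszel) over 25 strata, 5 of region width by 5 of ATAC score, since private regions were narrower (median 505 bp, range 213 to 1658) than shared regions (595 bp). The odds ratio of private against shared was 0.54 for eosinophil PU.1 (95% interval 0.40 to 0.73), 0.306 for C57 ATAC, 0.349 for C57 H3K27ac and 0.109 for immature granulocyte H3K27ac. It was 0.0314 for neutrophil PU.1, 0.0501 for macrophage PU.1 and 0.141 for immature granulocyte PU.1. For H3K4me1 it was 1.12, with an interval from 0.944 to 1.34. The same 7 differences as without strata had intervals below 1.

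Among the private regions themselves, 12 splits of a readout by another were compared, and 5 of them passed Fisher's exact test, two-sided, adjusted over the 12. The 12 pairs were chosen after the shares above had been seen. Neutrophil and macrophage PU.1 went together: 224 of the 300 private regions with macrophage PU.1 had neutrophil PU.1 (74.7%), against 93 of the 458 without it (20.3%), with an adjusted p of 3.82e-50 (Fisher's exact test). The split was much the same over all open regions, at 77.4% with macrophage PU.1 and 18.8% without. All open regions are given in the same way beside the other splits that passed, as a description. Eosinophil PU.1 was more frequent at private regions with C57 ATAC, at 524 of 584 (89.7%) against 134 of 174 (77.0%), with an adjusted p of 0.000218 (Fisher's exact test), and over all open regions the shares were 82.1% and 52.1%. That difference of 12.7 points was 22.5 points without ATAC library 1, and with the higher-ranked 50% of each list it was 13.7 points and did not pass (adjusted p = 0.12, Fisher's exact test).

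The other 3 splits that passed depended on the settings. Immature granulocyte H3K27ac was found at 32.3% of the 192 private regions with immature granulocyte PU.1 and at 20.1% of the 566 without it (adjusted p = 0.00305, Fisher's exact test), against 70.2% and 40.4% over all open regions. That difference was -2.33 points with the higher-ranked 50% of each list and 4.76 points where 50% of the open region had to be covered, and did not pass in either. Eosinophil PU.1 was found at 90.5% of the 304 private regions with C57 H3K27ac and at 84.4% of the other 454 (adjusted p = 0.0382, Fisher's exact test), against 92.0% and 64.0% over all open regions. The call was lost in 8 of 18 alternatives, among them both stratified odds ratios and leaving out H3K4me3 library 1 (5.48 points, adjusted p = 0.0817, Fisher's exact test). The difference of 6.10 points was 10.1 points without ATAC library 1, 9.30 points without BALB/c H3K27ac library 2 and 10.3 points without C57 H3K27ac library 1. H3K4me1 was called at 55.3% of the private regions with macrophage PU.1 and at 45.6% of those without (adjusted p = 0.0282, Fisher's exact test), against 20.8% and 17.7% over all open regions. This call was also lost in 8 of 18 alternatives, with 2.85 points when H3K4me1 library 2 was left out (adjusted p = 0.608, Fisher's exact test), 7.78 points without ATAC library 2, 7.50 points without H3K27ac library 1 and 8.88 points without H3K4me3 library 1.

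The remaining 7 splits did not pass. Eosinophil PU.1 was found at 88.8% of the private regions with H3K4me1 and 84.9% of those without (adjusted p = 0.227, Fisher's exact test), a difference that was 9.27 points and passed when H3K27ac library 2 was left out (adjusted p = 0.00121). H3K4me1 was called at 51.3% of the private regions with C57 H3K27ac and 48.2% of those without, and at 53.0% of those with neutrophil PU.1 and 46.9% of those without. The second of these was 6.06 points. It passed with PU.1 lists of equal length (11.3 points, adjusted p = 0.044, Fisher's exact test), with immature granulocyte H3K27ac excluded (9.85 points) and with outside H3K27ac lists of equal length (6.56 points), and was 0.961 points without H3K4me1 library 2. The first was 10.6 points and passed without C57 H3K27ac library 1 (adjusted p = 0.0351, Fisher's exact test). Immature granulocyte H3K27ac was found at 25.3% of the private regions with C57 H3K27ac and 21.8% of those without, and this difference was 6.83 points and passed without BALB/c H3K27ac library 2 (adjusted p = 0.0485, Fisher's exact test). It was found at 22.7% of those with H3K4me1 and 23.8% of those without. Neutrophil PU.1 was found at 43.2% of the private regions with immature granulocyte H3K27ac and at 41.4% of those without, and macrophage PU.1 at 42.6% and 38.7%. With libraries left out, the neutrophil difference of 1.77 points ran from 0.356 without ATAC library 1 to 5.91 without BALB/c H3K27ac library 2, and was 3.12 without ATAC library 2. The macrophage difference of 3.95 points was 2.46 points without BALB/c H3K27ac library 2. Both passed with outside H3K27ac lists of equal length, at 11.1 and 15.8 points.

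The readouts were also counted in combination, without a test. Eosinophil PU.1, H3K4me1, C57 ATAC and C57 H3K27ac, each of the last 3 in both libraries, with no immature granulocyte H3K27ac, came together at 97 private regions (12.8%, 10.6 to 15.4), against 2.09% of all open regions and 6.37% of the shared regions. It was not particular to the private regions. The share was 11.0% (8.42 to 14.3) with a neutrophil H3K27ac peak alone and 11.4% (9.25 to 14.0) with a macrophage peak alone. With PU.1 in eosinophils alone as a further condition, 40 private regions were left (5.28%), against 0.277% of all open regions and 0 of 1821 shared regions, a count with a 95% Wilson interval up to 0.211% (3 counts of 1821 are 0.165%). Under this condition 0.460% of the regions with a neutrophil peak alone and 0.878% of those with a macrophage peak alone were left.

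The private regions lay farther from H3K4me3 than the shared regions. The median distance to the nearest H3K4me3 region called in both libraries was 23347.5 bp (quartiles 9978.5 to 67538.8) for private and 13481 bp for shared regions. Within 10 kb of such a region lay 190 private regions (25.1%) and 42.0% of the shared regions, and within 50 kb 69.1% and 84.6%. The H3K27ac region around a private region was also narrower, with a median of 970.5 bp against 1149 bp. These distances rest on marks the rule used and were not tested.

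**Figure D4:**
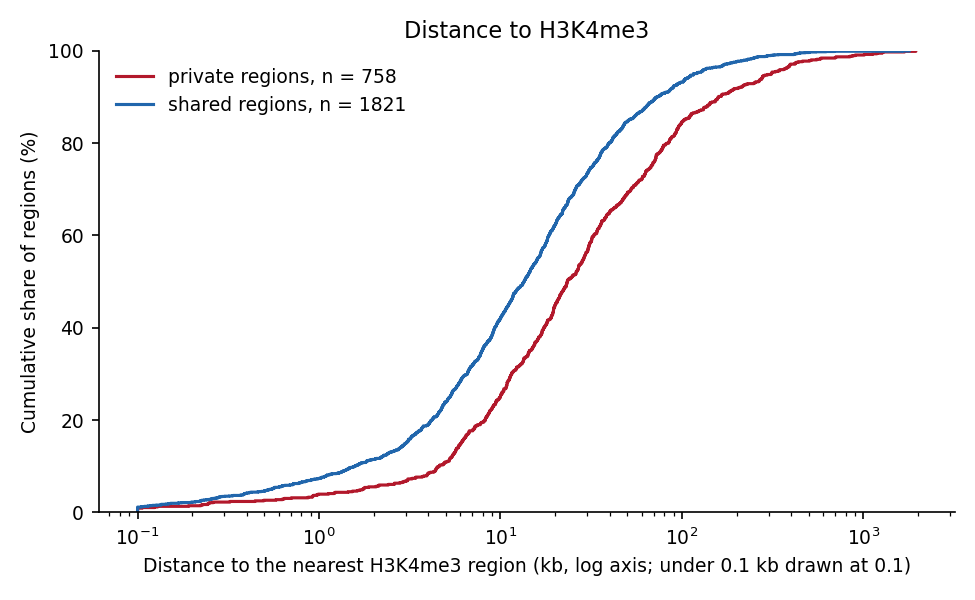
Cumulative share of private (red, n = 758) and shared (blue, n = 1821) regions, in percent, by the distance to the nearest H3K4me3 region in kb on a log axis. The private curve lies to the right of the shared one over most of its length, and at 10 kb it has reached 25.1% where the shared one has reached 42.0%.

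Most private regions had no other private region within 25 kb. Linked at 25 kb or less, 658 of 758 had no other private region in reach, 82 formed 41 pairs and 18 formed 6 groups of 3. Another region of the same set lay within 25 kb of 13.2% of the private and 28.4% of the shared regions. The shared set is larger, and the share that scattered positions would give was not computed. The tightest group of 3, at chr6:53104639-53113387 (mm9), spanned 8749 bp with no neutrophil or macrophage H3K27ac peak and no H3K4me3 region inside. Its 3 members all had H3K4me1 and C57 H3K27ac, while 2 had eosinophil PU.1, 2 had C57 ATAC and 1 had immature granulocyte H3K27ac. The group at chr14:55406941-55428759 spanned 21819 bp, and its 3 members all had eosinophil PU.1, C57 ATAC and C57 H3K27ac. Only 1 of them had H3K4me1, and 1 had PU.1 in eosinophils alone. By chromosome, the private share of open regions was highest on chromosome 16, with 45 of 961 (4.68%), and lowest on chromosome 9, with 29 of 1463 (1.98%). Over all chromosomes it was 2.77%, and the differences were not tested.

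The 5 private regions with the highest ATAC values differed in the other readouts. At chr8:36197855-36198153, the ATAC fold enrichment was 13.0 and 11.2 in the BALB/c libraries, and a C57 peak was called in library 2 alone, at 4.52. Its BALB/c H3K27ac folds were 8.82 and 5.99, its eosinophil PU.1 fold was 9.54, and immature granulocytes were the only other cell type with PU.1, at 24.3. This region stood at the edge of the rule, 2 bp from an outside H3K27ac peak and with an H3K4me3 peak of fold 9.13 in library 1. At chr2:75480435-75480747, ATAC folds of 9.74 and 10.4 came with no C57 peak of either assay, with H3K4me1 in both libraries (4.43 and 3.87) and with PU.1 in eosinophils alone (8.81). It too had an H3K4me3 peak in a single library, at 4.64 in library 2.

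The other 3 were open in both strains. At chr16:35981701-35981960, ATAC folds were 9.84 and 9.64 in BALB/c and 8.71 and 7.15 in C57, and PU.1 was present in all 4 cell types, at 11.7 in eosinophils, 19.2 in neutrophils, 15.4 in macrophages and 30.1 in immature granulocytes. It lay 918 bp from an H3K4me3 region, had an H3K4me3 peak of fold 3.48 in library 1 alone and had immature granulocyte H3K27ac. At chr1:43298082-43298488, ATAC folds were 9.64 and 9.37 in BALB/c and 10.6 and 8.48 in C57, PU.1 was again present in all 4 cell types, and no H3K4me1 peak was called. At chr8:10683111-10683488, ATAC folds were 8.46 and 9.32 in BALB/c and 10.9 and 9.60 in C57, with H3K4me1 in both libraries (3.34 and 3.35) and PU.1 in all 4 cell types, at 12.4 in eosinophils. An outside H3K27ac peak lay 39 bp from it.

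Of the 5 regions with the highest H3K27ac values, 2 had no C57 peak of either assay. At chr3:86714171-86714611, H3K27ac folds were 7.29 and 7.57 and H3K4me1 folds 6.64 and 6.82, the highest H3K4me1 of any private region in both libraries. PU.1 was found in eosinophils alone at 10.6, and C57 had no peak there. At chr2:5239656-5240292, H3K27ac folds were 6.22 and 8.26 in BALB/c and 4.00 and 4.57 in C57, and no cell type had PU.1. At chrX:100494321-100495031, H3K27ac folds were 5.37 and 5.64 with no C57 peak, an H3K4me3 peak of 3.80 in library 2 alone and an immature granulocyte H3K27ac peak of 6.63. Eosinophils had no PU.1 there, while macrophages had it at 6.60 and immature granulocytes at 7.68. At chrX:111118379-111118684, H3K27ac folds were 4.89 and 7.55, and 5.21 in C57 library 2 alone. The chr8:36197855-36198153 region was also among these 5.

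The highest eosinophil PU.1 peaks of private regions were bound in other cell types too. The highest of all, with a fold of 15.2, lay at chr13:19966789-19967052, where neutrophils had 31.5, macrophages 24.2 and immature granulocytes 15.2. BALB/c H3K27ac folds there were 4.08 and 3.55 and H3K4me1 folds 4.04 and 3.68, C57 ATAC was called in both libraries (3.61 and 3.55), and no C57 H3K27ac peak was called. The nearest outside H3K27ac peak lay 6357 bp away. The others were chr4_random:128107-128766 (14.1, with an H3K4me3 peak of 3.32 in library 2 alone), the chrX:111118379-111118684 region (13.8), chr1:144896596-144897604 (13.6) and chr3:152018077-152018653 (13.3). Of these 5 regions 4 had PU.1 in all 4 cell types, and the chrX region lacked it in macrophages.

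**Figure D5:**
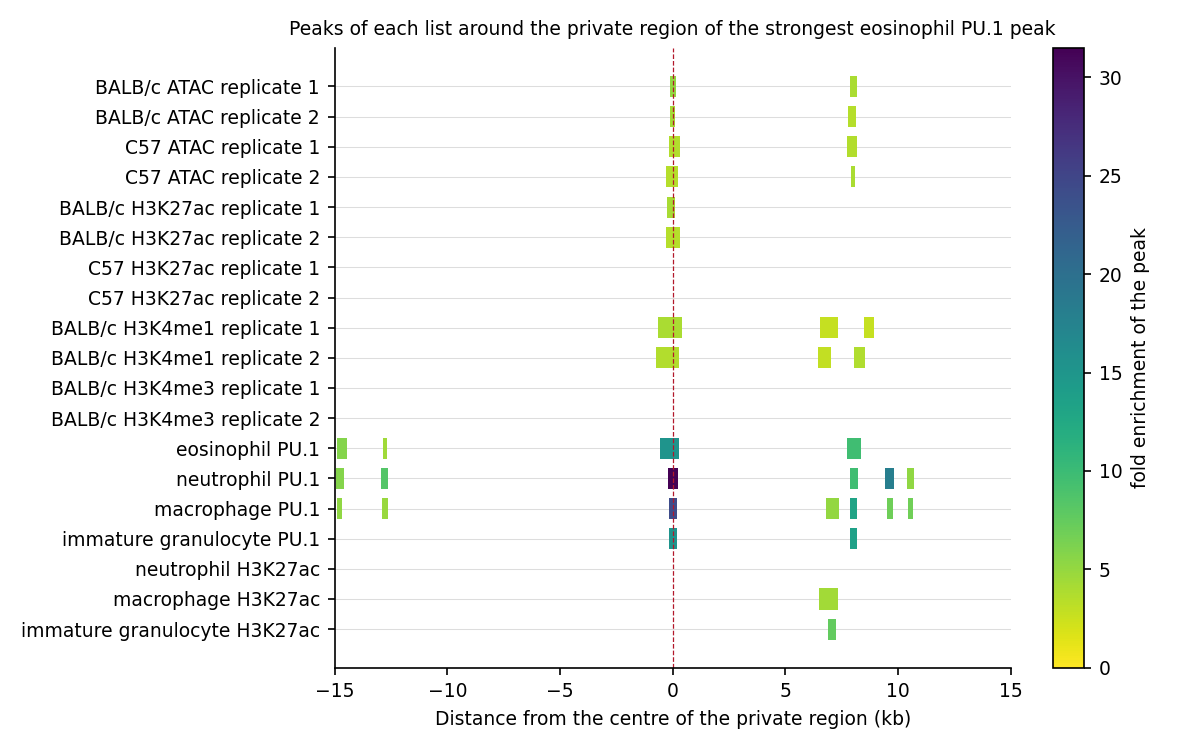
Peaks of each list within 15 kb of the private region with the highest eosinophil PU.1 fold, drawn by distance from its centre in kb and coloured by fold enrichment. At the centre all 4 PU.1 lists have a peak, from 15.2 in eosinophils to 31.5 in neutrophils, while the H3K27ac peaks there come from the 2 BALB/c libraries alone. Folds of different lists are not on one scale.

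A single H3K27ac region held 2 private regions in 9 cases, and 740 held 1. In the first by position, the pair at chr11:73914222-73914654 and chr11:73914963-73915372 shared an H3K27ac region of 1363 bp, 390239 and 389521 bp from the nearest outside H3K27ac peak. Both had H3K4me1, C57 ATAC, C57 H3K27ac and PU.1 in eosinophils, neutrophils and macrophages, with neutrophil PU.1 folds of 22.5 and 5.31. In the pair at chr13:96756967-96757520 and chr13:96758104-96758468, both had eosinophil PU.1 and C57 ATAC, and the second alone had H3K4me1 in both libraries and neutrophil PU.1. In the pair at chr15:77294800-77295187 and chr15:77295490-77296005, both had PU.1 in eosinophils alone, at 3.89 and 4.59, and neither had a C57 ATAC peak. The members of such a pair share their H3K27ac peaks and are not independent of each other.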

How the data were processed

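ATAC-seq, ChIP-seq and RNA-seq of 15 cultured eosinophil samples were used, with 6 peak lists of other cells that the authors deposited beside them. Per the submitters' processing notes, the genome build was mm9, and Bowtie2 2.3.4.1, STAR 2.5, Trim Galore 0.4.2, FastQC 0.11.7, bedtools 2.27.0, Picard 1.89, HOMER and featureCounts were used for steps the notes do not assign. The peak caller is not given in the sources used here. Each deposited peak list gives a score, a fold enrichment (ratio) and a −log10 q per peak, which are the authors' values. They were used to rank or filter peaks within a list and to form strata of score, and are otherwise given as a description. Median folds of the PU.1 lists were 5.30 in eosinophils, 9.01 in neutrophils, 5.74 in macrophages and 8.78 in immature granulocytes. Folds of different lists are thus not on one scale. The deposited lists of PU.1 in eosinophils, neutrophils and immature granulocytes also give the summit. The histone, ATAC and macrophage PU.1 lists reach down to a −log10 q of 1, the other PU.1 lists to 2, as tested on the files. The deposited RNA tables hold raw read counts per gene, from which CPM was computed.

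Peaks of the 2 libraries of a group that shared at least 1 bp were joined, and a joined region with a peak of both counted as called in both. A readout was present where a peak or such a region overlapped the open region by at least 1 bp. Where several peaks overlapped, the highest fold was taken. Private and shared regions were compared by a two-sided Fisher's exact test on each of 8 shares, and p-values were adjusted over the 8 (Benjamini-Hochberg, threshold 0.05). The 12 splits among the private regions were adjusted in the same way. Intervals of shares are 95% Wilson intervals. The comparison was tested on simulated peak lists with known shares. In these lists the 2 libraries of H3K4me1, of C57 ATAC and of C57 H3K27ac were identical. The joining of unlike libraries for these readouts, and outside peaks that only just touch or miss a region, were thus not tested. Alternatives were each library left out, the higher-ranked 50% of each list, lists of equal length, a minimum overlap of 50%, outside peaks widened by 500 bp, H3K4me3 or immature granulocyte H3K27ac as a stricter exclusion, and odds ratios over strata of width and score. Equal C57 lists, a −log10 q of at least 2 for macrophage PU.1, strata of H3K27ac score and all alternatives of the 12 splits were chosen after seeing the data.

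The members and the lists were chosen with earlier results of these data known. Regions named are the 5 with the highest mean percentile in ATAC, the 5 highest in H3K27ac, the 5 highest in eosinophil PU.1 fold and the 3 H3K27ac regions with the most members, ties by position, without chromosome 18. The groups of 3 named by position were chosen after their values were seen. Coordinates are mm9, counted from 1. A genome or gene annotation of mm9 was not used here, so nearest genes, sequences and the planned motif search are not analysed here. The versions were scipy 1.17.1, pandas 2.3.3, numpy 2.4.6 and Python 3.11.15.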

Additional observations from a re-analysis of the deposited data

How the results depend on the processing

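Of 124 recomputed differences between private and shared regions, 119 kept their direction and their side of the threshold, and the 5 others were all of H3K4me1. That difference passed with the higher-ranked 50% of each list (22.5 points), with outside H3K27ac lists of equal length (4.94) and with 50% overlap (7.13), and leaving out single libraries gave -1.53 to 4.87 points. The number of private regions was 249 with the higher-ranked 50% of each list and 1165 with outside lists of equal length, and between 582 and 1010 in the other alternatives. Within the private regions, eosinophil PU.1 by C57 ATAC did not pass with the higher-ranked 50% (13.7 points). By C57 H3K27ac it did not pass with H3K4me3 of either library excluded (5.09), PU.1 lists of equal length (7.49), the higher-ranked 50% (8.87), immature granulocyte H3K27ac excluded (4.39), 50% overlap (6.21) and common odds ratios over strata of ATAC score (1.48) or H3K27ac score (1.47), and leaving out libraries gave 5.48 to 10.3 points. By H3K4me1 it passed with outside lists of equal length (5.83), and leaving out libraries gave 3.09 to 9.27 points.

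Signs turned as follows, and none of the turned values passed. H3K4me1 by C57 H3K27ac was -3.74 points with the higher-ranked 50%, -4.17 with 50% overlap and -0.346 without H3K4me1 replicate 1, and leaving out libraries gave -0.346 to 10.6. Immature granulocyte H3K27ac by C57 H3K27ac was -4.31, -1.55 and, without C57 H3K27ac replicate 1, -2.08, with a range of -2.08 to 6.83 over libraries left out. By H3K4me1 it was 0.0975, 0.141 and 0.331 without H3K27ac replicate 2, H3K4me1 replicate 1 and H3K4me3 replicate 1, where leaving out libraries gave -2.12 to 0.331 and other alternatives reached down to -4.40. By immature granulocyte PU.1 it was -2.33 with the higher-ranked 50%. The cause was not tested. Shorter lists hold fewer peaks by construction, and the reads behind each list are unknown. No paired analysis was possible because the shares come from calls over regions and not from a fit over libraries.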
